A study of Mus musculus with 12 samples.

Results

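Interferon beta and the genes that type I and type II interferons induce were followed as a module of 41 genes in macrophages sorted from infarcted mouse hearts. The members were chosen by gene symbol: Ifnb1 itself, the transcription factors of the pathway, antiviral effectors, nucleic acid sensors, interferon-induced GTPases and interferon-induced chemokines. All 41 were found among the 53801 genes of the table, none shared its symbol with another gene, and all 41 passed the filter on low counts.

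The libraries are bulk RNA-seq of cardiac macrophages after myocardial infarction (MI, made by ligating the left anterior descending coronary artery), with 4 groups of 3 libraries each. The mice of the first pair of groups carried Bhlhe41dTomato-Cre+/-, an insertion of dTomato and Cre at 1 copy of Bhlhe41, a gene for a helix-loop-helix repressor of transcription, and are called Bhlhe41Cre here. The other mice were wild type (WT). In each genotype the cells were sorted by CCR2, the chemokine receptor that marks macrophages of recent monocyte origin, into CCR2low and CCR2hi cells, which gives Bhlhe41Cre CCR2low, Bhlhe41Cre CCR2hi, WT CCR2low and WT CCR2hi. All mice are labelled C57BL/6N and male, all had an infarct, and total RNA was taken with TRIzol. The label fields of the Bhlhe41Cre libraries are shifted by 1 place, so their gate and number come from the title, and the tables name their columns KD. Age, the time after MI, the animals behind each library, any pooling, and how the insertion affects the Bhlhe41 protein are not stated in the labels. Nothing states that replicates came from separate mice, so p-values measure the spread between these libraries, which may be technical.

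Interferon beta is secreted when sensors of foreign or misplaced nucleic acid switch on its gene, and it binds the receptor of Ifnar1 and Ifnar2 on the same or a neighbouring cell. The receptor's kinases then activate a complex that contains STAT2 and IRF9 and binds the interferon-stimulated response element (ISRE) of many target genes. Interferon gamma acts through another receptor and another DNA element, the gamma-activated site (GAS), and drives Irf1, the immunity-related GTPases, guanylate-binding proteins and Cxcl9 in particular. Macrophages of the infarcted heart are known to make type I interferon when they take up the DNA of dying cells.

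Depth was even, with 17702018 to 20826688 counts per library. The gates differed in the cells they held. The 17 macrophage identity genes took 2.41 to 2.59% of counts in Bhlhe41Cre CCR2low libraries and 0.709 to 0.898% in Bhlhe41Cre CCR2hi, and 2.397 to 2.63% in WT CCR2low libraries and 0.189 to 0.414% in WT CCR2hi. The 16 fibroblast genes took 0.473 to 0.901% in Bhlhe41Cre CCR2low libraries and 4.73 to 5.92% in Bhlhe41Cre CCR2hi, and 0.896 to 1.22% in WT CCR2low libraries and 8.90 to 9.71% in WT CCR2hi. None of these 33 genes was at 0 in any group. Every level below is a share of a mixed library, so a change in the cells that hold a transcript and a change in the transcript per cell cannot be told apart. Counts of Xist, the transcript that silences 1 X chromosome in female cells, were present in every Bhlhe41Cre library, at 2027 to 3699 in the CCR2low gate and 1403 to 1798 in the CCR2hi gate, whereas in WT a single CCR2hi library had 3 and the other 5 libraries had 0. Summed over 4 genes of the Y chromosome, the Bhlhe41Cre CCR2low libraries 1, 2 and 3 had 1162, 1446 and 105 counts and the CCR2hi libraries 709, 1413 and 182, beside 668 to 1741 in the 6 WT libraries. The label of male mice therefore goes against the Xist counts of all 6 Bhlhe41Cre libraries. Those numbered 1 and 2 held Xist together with Y-linked counts within the range of the WT libraries. Whether a library holds RNA of both sexes was not tested, and the sex of the mice and the genotype cannot be told apart. The Bhlhe41Cre libraries numbered 3 stood apart in their Y-linked counts, so the counts of called genes over the whole module, and over the wider pathway list, are also given without both, an alternative chosen after seeing the data. The Bhlhe41 gene itself gave 226 to 477 counts in the CCR2low and 132 to 198 counts in the CCR2hi libraries of Bhlhe41Cre, while WT libraries gave 642 to 774 counts in CCR2low and 531 to 920 counts in CCR2hi.

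**Figure D1:**
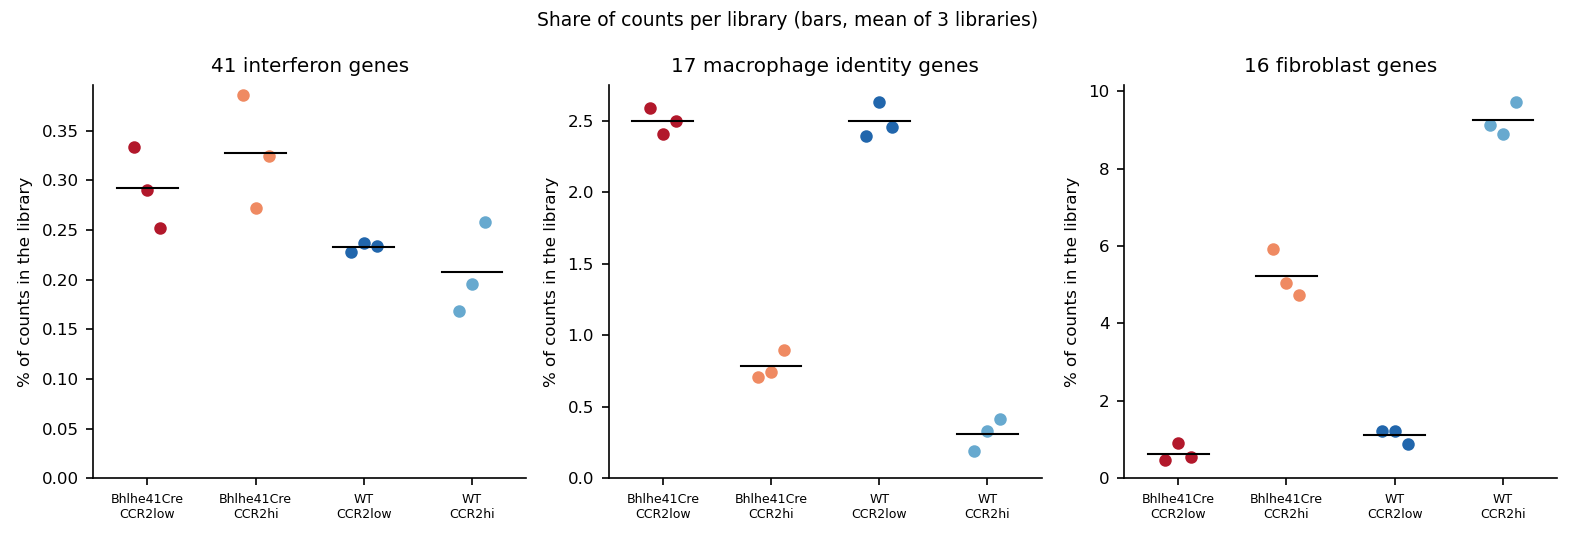
Percent of each library's counts taken by the 41 interferon genes, by 17 macrophage identity genes and by 16 fibroblast genes; each point is a library, each bar the mean of 3. The 41 genes took 0.252 to 0.386% of counts in Bhlhe41Cre libraries and 0.168 to 0.258% in WT libraries, while the macrophage and fibroblast shares separated the gates in both genotypes.

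The promoters of members that the results turn on are shown for the elements through which interferons act. RefSeq promoter windows on GRCm38.p6, 250 bases before to 50 after the transcription start, were at hand for 33 of the 41 members, with 38 windows among them. The core ISRE, searched as GAAANNGAAA on both strands, was in a window of 20 of these 33 members (60.6%), against 3.99% of all 27025 genes with a window and 3.44% of all 32851 windows. The GAS, searched as TTCNNNGAA, which reads the same on both strands, was in a window of 7 of the 33 (21.2%), against 9.55% of all genes and 8.3% of all windows. These matches describe the letters of the windows and do not show that a factor was bound. In the sequences below, printed 5′ to 3′ on the strand of the gene, capitals mark every match to either element. Ifnb1 and Oasl1 are shown because they differed most between the genotypes, and Ifit1, Isg15 and Cxcl10 as effectors and a chemokine that rose in both gates. Irf1 and Igtp are the members with the most negative interaction, the CCR2low minus CCR2hi difference in Bhlhe41Cre less that in WT. Ifnb1 lies at chr4:88522745-88523044 on the minus strand, Oasl1 at chr5:114922990-114923289 on the plus strand, Ifit1 at chr19:34640639-34640938 on the plus strand and Isg15 at chr4:156200769-156201068 on the minus strand. Cxcl10 lies at chr5:92348840-92349139 on the minus strand, Irf1 at chr11:53769764-53770063 and Igtp at chr11:58199306-58199605, both on the plus strand. For Irf1, the window shown is the one of its 2 windows that holds a match.
Ifnb1: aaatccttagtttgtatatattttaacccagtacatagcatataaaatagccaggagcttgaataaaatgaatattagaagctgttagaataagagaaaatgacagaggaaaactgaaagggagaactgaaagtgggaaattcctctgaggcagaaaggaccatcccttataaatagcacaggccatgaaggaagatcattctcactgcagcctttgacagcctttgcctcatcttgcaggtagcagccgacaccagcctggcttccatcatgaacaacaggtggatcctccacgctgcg
Oasl1: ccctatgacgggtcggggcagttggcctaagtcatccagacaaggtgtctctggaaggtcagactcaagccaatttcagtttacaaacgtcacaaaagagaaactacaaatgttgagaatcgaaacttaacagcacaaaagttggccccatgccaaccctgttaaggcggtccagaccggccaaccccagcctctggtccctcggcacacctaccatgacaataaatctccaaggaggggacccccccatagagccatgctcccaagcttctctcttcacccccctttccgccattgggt
Ifit1: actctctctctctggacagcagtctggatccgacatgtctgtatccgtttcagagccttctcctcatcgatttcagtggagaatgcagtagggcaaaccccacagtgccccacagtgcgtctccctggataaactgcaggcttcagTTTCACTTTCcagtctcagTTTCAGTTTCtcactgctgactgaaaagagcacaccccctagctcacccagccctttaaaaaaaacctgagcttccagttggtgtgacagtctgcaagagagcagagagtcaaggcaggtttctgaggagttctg
Isg15: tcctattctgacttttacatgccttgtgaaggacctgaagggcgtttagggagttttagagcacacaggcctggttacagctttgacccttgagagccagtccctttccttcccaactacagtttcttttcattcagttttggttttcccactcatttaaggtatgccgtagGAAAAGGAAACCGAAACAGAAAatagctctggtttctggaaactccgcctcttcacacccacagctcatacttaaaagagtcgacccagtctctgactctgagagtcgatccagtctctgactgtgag
Cxcl10: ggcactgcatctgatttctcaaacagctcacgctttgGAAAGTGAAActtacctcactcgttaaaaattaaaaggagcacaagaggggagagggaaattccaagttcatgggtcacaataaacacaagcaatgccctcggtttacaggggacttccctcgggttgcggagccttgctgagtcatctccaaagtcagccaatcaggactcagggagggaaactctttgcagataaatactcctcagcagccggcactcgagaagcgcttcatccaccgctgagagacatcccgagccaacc
Irf1: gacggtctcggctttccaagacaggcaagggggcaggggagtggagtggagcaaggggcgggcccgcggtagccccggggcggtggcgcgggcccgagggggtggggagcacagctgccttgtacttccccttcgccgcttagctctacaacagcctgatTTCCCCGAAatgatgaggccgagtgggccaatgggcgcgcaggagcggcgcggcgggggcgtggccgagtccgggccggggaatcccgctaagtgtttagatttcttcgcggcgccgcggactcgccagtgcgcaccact
Igtp: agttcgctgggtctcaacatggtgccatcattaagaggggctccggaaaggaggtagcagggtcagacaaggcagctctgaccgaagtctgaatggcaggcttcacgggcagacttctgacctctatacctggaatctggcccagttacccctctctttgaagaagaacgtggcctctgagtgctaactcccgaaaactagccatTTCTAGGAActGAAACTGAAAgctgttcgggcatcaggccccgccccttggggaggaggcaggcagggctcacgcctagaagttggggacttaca
The 2 ISRE matches of Ifit1 start 104 and 85 bases before the start site. In Isg15 there are 3 overlapping matches that start 78, 72 and 66 bases before it, in a run of repeated GAAA cores. Cxcl10 has 1 ISRE match 213 bases before its start and Irf1 has 1 GAS match 90 bases before its start. Igtp has both, a GAS 45 and an ISRE 34 bases before its start. The windows of Ifnb1 and Oasl1 hold neither exact pattern.

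Ifnb1 was higher in the Bhlhe41Cre libraries of both gates than in the WT libraries, where few of its reads were counted. Its levels were 26.2, 19.9 and 22.6 CPM (counts scaled by TMM to a common library size) in Bhlhe41Cre CCR2low and 7.53, 7.49 and 11.2 CPM in Bhlhe41Cre CCR2hi, against 0.799, 0.855 and 0.714 CPM in WT CCR2low and 1.58, 0.525 and 0.968 CPM in WT CCR2hi. Behind these stood 365 to 490 and 157 to 217 counts per library in the Bhlhe41Cre gates and 14 to 17 and 10 to 32 counts in the WT gates. Every Bhlhe41Cre library was above every WT library, and the Bhlhe41Cre CCR2low libraries were above those of Bhlhe41Cre CCR2hi. On the length-corrected scale Ifnb1 averaged 53.6 ± 9.70 TPM (transcripts scaled to a common total) in Bhlhe41Cre CCR2low and 23.8 ± 5.49 TPM in Bhlhe41Cre CCR2hi, against 1.81 ± 0.138 TPM in WT CCR2low and 3.02 ± 1.61 TPM in WT CCR2hi (SD, n = 3 each). By mean TPM it ranked 12 of 41 members in Bhlhe41Cre CCR2low and 25 in Bhlhe41Cre CCR2hi, and was the lowest of the 41 in both WT groups. Bst2, which encodes tetherin, and the ubiquitin-like modifier Isg15 were among the 5 highest members by TPM in all 4 groups, as were Irf7 and Cxcl10. The other interferon genes did not accompany Ifnb1: of 20 listed interferon ligands none passed the filter, and Ifng, which encodes interferon gamma, had 0 to 3 counts in every library.

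**Figure D2:**
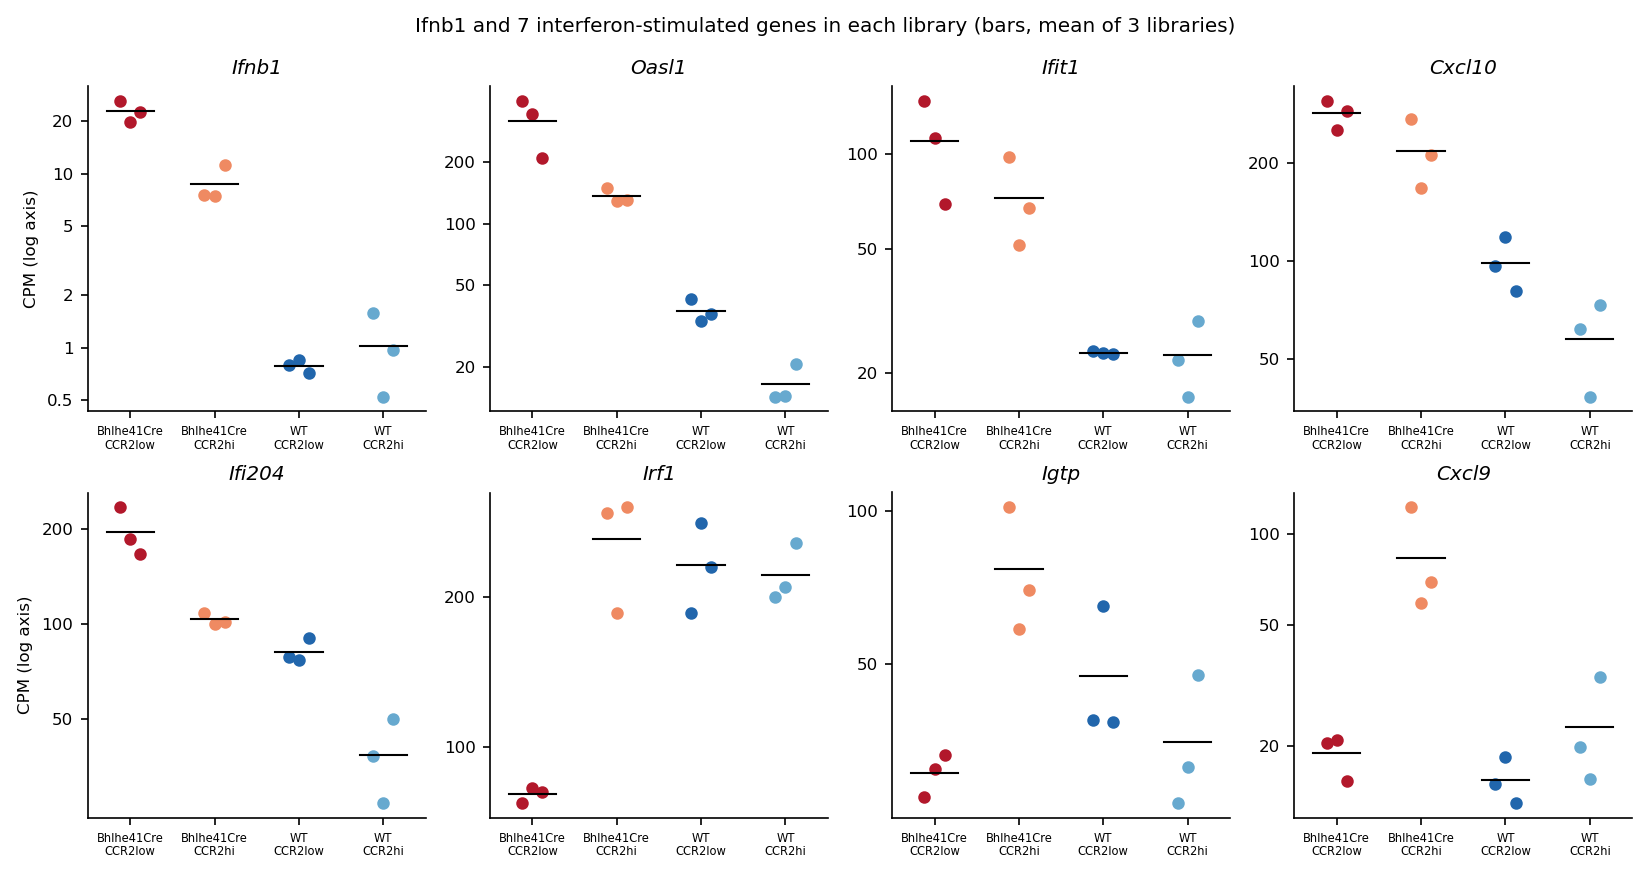
CPM on a log axis for Ifnb1 and 7 interferon-stimulated genes in each library, with a bar at the mean of 3. Ifnb1, Oasl1, Ifit1, Cxcl10 and Ifi204 were higher in every Bhlhe41Cre library than in any WT library of the same gate, whereas Irf1 was low in Bhlhe41Cre CCR2low alone of the 4 groups and Igtp and Cxcl9 had their highest means in Bhlhe41Cre CCR2hi.

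In CCR2low cells, 12 of the 41 genes were higher in Bhlhe41Cre than in WT and 4 were lower, by edgeR's quasi-likelihood test with an adjusted p under 0.05 over all 14964 genes tested. Over all genes 16.4% were higher and 26.7% lower in this comparison. Without both libraries numbered 3 the counts were 12 and 3. The median log2 fold change of the 41 was -0.04, against -0.18 over all genes, and 25 of the 41 did not pass. In the same comparison 10 of 16 fibroblast genes and 7 of 14 tested T and NK cell markers were lower in Bhlhe41Cre, 4 of 11 monocyte genes were higher and 2 lower, and their part in the result was not tested. The genes that rose came from most effector classes, while 0 of the 4 transcription factors, 0 of the 4 guanylate-binding proteins and 0 of the 3 immunity-related GTPases rose. With 16.4% of all genes higher, classes of 3 or 4 genes are too small to compare, and no difference between classes was tested.

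Ifnb1 differed most in CCR2low cells, with a log2 fold change of 4.85 (SE 0.32), or 28.8-fold, at an adjusted p of 1.95e-06 by edgeR. Oasl1, a catalytically inactive relative of the oligoadenylate synthetases that in mice restrains translation of Irf7, had 401, 347 and 210.2 CPM in Bhlhe41Cre CCR2low, against 43.0, 33.3 and 36.1 CPM in WT CCR2low. The groups lay far apart and Oasl1 was 8.52-fold higher (log2 3.09, SE 0.23, adjusted p 4.34e-06). The other 4 oligoadenylate synthetases did not pass, with log2 differences of -0.02 for Oas1a, -0.47 for Oas2, -0.63 for Oas3 and -0.47 for Oasl2. Ifit1, whose product binds foreign RNA that lacks a host cap, had 148, 113 and 69.5 CPM in Bhlhe41Cre CCR2low, against 23.6, 23.2 and 23.1 CPM in WT CCR2low. Library 3 was the lowest of the Bhlhe41Cre libraries here, still above every WT library, and the log2 fold change was 2.24 (SE 0.29, adjusted p 0.000121). Ifit2 of the same family had 93.1, 63.5 and 41.8 CPM in Bhlhe41Cre CCR2low, against 26.6, 23.6 and 26.5 CPM in WT CCR2low, and rose by 1.37 on the log2 scale, whereas Ifit3 gave 0.04.

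Rsad2, which encodes the antiviral enzyme viperin, had 231, 196 and 95.6 CPM in Bhlhe41Cre CCR2low, against 45.9, 41.3 and 51.5 CPM in WT CCR2low, a log2 fold change of 1.91. Its neighbour on chromosome 12, the nucleotide kinase gene Cmpk2, which is usually induced with it, gave -0.08 (adjusted p 0.836). Among the 6 nucleic acid sensors 3 rose. Ifih1 (MDA5, a sensor of long double-stranded RNA) had 113, 79.8 and 45.0 CPM in Bhlhe41Cre CCR2low, against 20.7, 16.8 and 28.2 CPM in WT CCR2low, a log2 fold change of 1.86. The p200 family genes Ifi204 and Ifi205, whose products bind DNA, rose by 1.26 and 1.78. Ifi204 stood at 166 to 234 CPM in Bhlhe41Cre CCR2low and 76.5 to 89.9 CPM in WT CCR2low, without overlap. In the opposite direction Ddx58 (RIG-I, the sensor of uncapped RNA) had 41.4, 38.5 and 32.3 CPM in Bhlhe41Cre CCR2low, against 56.8, 54.2 and 55.2 CPM in WT CCR2low, and fell by 0.57 on the log2 scale (adjusted p 0.0035); 4 of 21 alternatives took this call away. The sensors Dhx58 and Zbp1 gave -0.09 and -0.45 and did not pass.

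Cxcl10, the ligand of the T cell receptor CXCR3, had 309, 252 and 287 CPM in Bhlhe41Cre CCR2low, against 96.4, 118 and 80.8 CPM in WT CCR2low. That is a 2.87-fold difference with groups well apart (log2 1.52, SE 0.23, adjusted p 0.00032). Isg15, Parp14 and Mx2 rose by 0.99, 0.98 and 0.93; for Mx2 the libraries of the groups overlapped, and 5 of 21 alternatives ended its call. Among the 4 transcription factors none rose. Irf1, a transcription factor that both interferons induce, had 76.9, 82.4 and 81.0 CPM in Bhlhe41Cre CCR2low, against 186, 283 and 230 CPM in WT CCR2low. It fell by 1.54 on the log2 scale (SE 0.20, adjusted p 0.000115), and its Bhlhe41Cre libraries lay close together, below every WT library. Stat2 and the GTPase gene Ifi47 fell by 0.52 (adjusted p 0.044) and 0.73 (adjusted p 0.0408) by edgeR. Of 21 alternatives, 19 and 16 ended these calls, the replicate block among them (adjusted p 0.0628 and 0.0572 by edgeR). In both genotype comparisons that block grouped Bhlhe41Cre and WT libraries by number alone, although nothing links them. Irf7 (-0.32) and Irf9 (-0.32) did not pass. Scaling to the 17 macrophage identity genes moved the median gene by only 0.02 in this comparison, and 11 of the 12 genes that were higher passed again.

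In CCR2hi cells 16 of the 41 genes were higher and 2 lower in Bhlhe41Cre than in WT by edgeR, where over all genes 16.2% were higher and 15.9% lower. Without both libraries numbered 3 the counts were 13 and 1. The median log2 fold change was 0.40, against -0.03 over all genes. All 3 immunity-related GTPases and both chemokines rose, together with 3 of 6 nucleic acid sensors, 2 of 5 oligoadenylate synthetases, 1 of 4 guanylate-binding proteins and 1 of 3 IFIT genes. In the same comparison 12 of 17 macrophage identity genes, 8 of 11 monocyte genes and 9 of 11 neutrophil genes that were tested were also higher in Bhlhe41Cre, and 8 of 16 fibroblast genes were lower. The monocyte genes summed to 0.206 to 0.217% of counts in Bhlhe41Cre CCR2hi and 0.0966 to 0.126% in WT CCR2hi. The neutrophil genes summed to 0.0921 to 0.144% of counts in Bhlhe41Cre CCR2hi and 0.0053 to 0.0146% in WT CCR2hi, and their part in the result was not tested.

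Ifnb1 was 8.43-fold higher in Bhlhe41Cre CCR2hi than in WT CCR2hi (log2 3.08, SE 0.30, adjusted p 1.42e-05 by edgeR). Oasl1 was next, with 149.6, 129 and 131 CPM in Bhlhe41Cre CCR2hi against 14.3, 14.4 and 20.5 CPM in WT CCR2hi. Its fold change of 8.33 (log2 3.06, SE 0.23, adjusted p 2.06e-06) stood beside 8.52 in CCR2low cells. Cxcl10 had 273, 168 and 211 CPM in Bhlhe41Cre CCR2hi, against 61.7, 38.5 and 73.3 CPM in WT CCR2hi, and rose by 1.91. Cxcl9, the other CXCR3 ligand and a classical target of interferon gamma, had 123, 59.2 and 69.3 CPM in Bhlhe41Cre CCR2hi, against 19.9, 15.6 and 33.7 CPM in WT CCR2hi. Library 1 was the highest of that group for Cxcl9, and the log2 fold change was 1.86 (SE 0.30, adjusted p 0.000586).

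The effectors Ifit1, Ifi204, Ifi205, Isg15, Rsad2 and Parp14, which also rose in CCR2low cells, had log2 fold changes of 1.67, 1.43, 1.32, 0.99, 0.93 and 0.73. With Ifnb1, Oasl1 and Cxcl10 these make 9 genes that were higher in both gates. The share of all tested genes that were higher in both gates was not counted. Ifi204 stood at 99.9 to 108 CPM in Bhlhe41Cre CCR2hi and 26.9 to 49.9 CPM in WT CCR2hi. The immunity-related GTPases, which attack the vacuoles of intracellular pathogens, rose as well. Igtp had 102, 58.6 and 70.0 CPM in Bhlhe41Cre CCR2hi, against 26.6, 31.4 and 47.5 CPM in WT CCR2hi (log2 1.13, SE 0.26, adjusted p 0.00564). Irgm1 had 165, 102 and 117 CPM in Bhlhe41Cre CCR2hi, against 55.2, 57.5 and 72.3 CPM in WT CCR2hi (log2 1.05, SE 0.17, adjusted p 0.000572). For both genes the groups did not overlap. Ifi47, Zbp1, Oas1a and Gbp2 rose by 0.95, 0.90, 0.82 and 0.79, and the calls of Oas1a and Gbp2 were ended by 8 and 9 of 21 alternatives, that of Gbp2 also by the replicate block (adjusted p 0.0584). Ddx58 fell by 0.49 (adjusted p 0.0106) and Stat2 by 0.55 (adjusted p 0.0433); 11 of 21 alternatives ended the call of Stat2, the replicate block among them (adjusted p 0.0632), and 1 that of Ddx58 (adjusted p 0.0549 without Bhlhe41Cre CCR2hi library 2). Ifi47 was the gene that rose in CCR2hi and fell in CCR2low.

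Scaling to the macrophage identity genes moved the median gene by -1.14 in CCR2hi. Under it Ifnb1 (1.85), Oasl1 (1.97) and Cxcl9 (0.81) stayed higher and passed, Cxcl10, Ifit1, Ifi204, Ifi205 and Igtp were higher without passing, and the other 8 turned below 0 without passing. Those 8 were Isg15, Rsad2, Oas1a, Zbp1, Gbp2, Irgm1, Ifi47 and Parp14. Ifi205 was at 0.00 under that scaling, and under TMM scaling its groups overlapped.

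**Figure D3:**
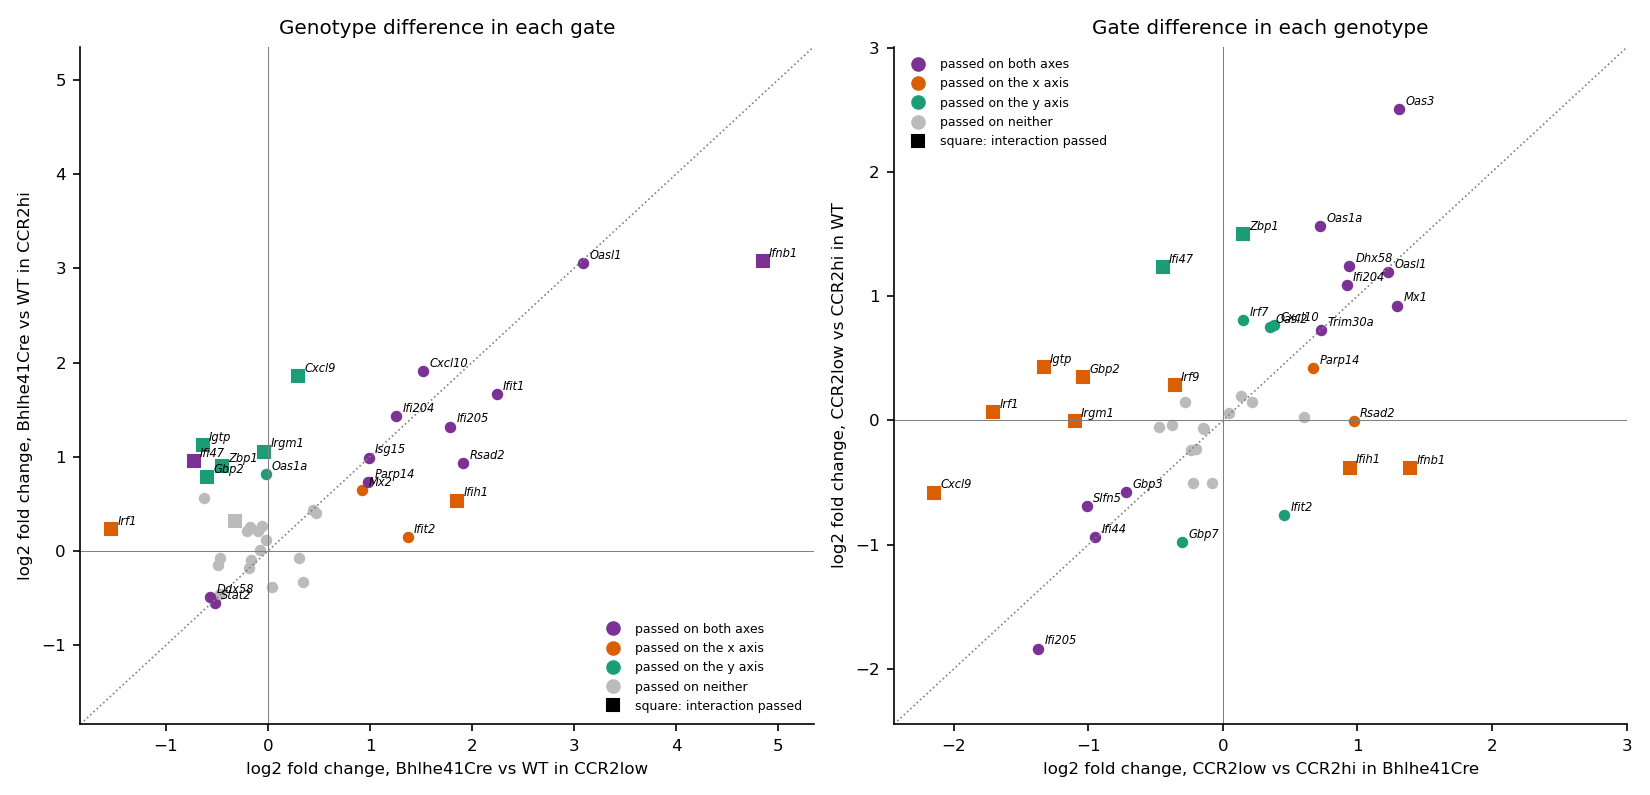
Log2 fold changes of the 41 genes: left, Bhlhe41Cre vs WT in CCR2low (x axis) and CCR2hi (y axis); right, CCR2low vs CCR2hi in Bhlhe41Cre (x axis) and WT (y axis). Colours show which axis passed the test and squares the genes whose interaction passed; Oasl1 lies on the diagonal of the left panel, Ifnb1 to its right, and Igtp, Ifi47, Zbp1, Gbp2, Irgm1, Cxcl9 and Irf1 above it. Under scaling to macrophage identity genes the positive gate differences of the right panel that passed turn negative, as do 8 of the 16 positive genotype differences in CCR2hi.

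Whether the gates differed by the same amount in both genotypes was tested by the interaction, the CCR2low minus CCR2hi difference in Bhlhe41Cre less that in WT. It was higher for 2 genes and lower for 8 of the 41, against 4.74% higher and 7.85% lower over all genes, and without both libraries numbered 3 for 4 and 5. The median was -0.09, against -0.18 over all genes. The genes that were lower were 2 of 4 transcription factors, all 3 immunity-related GTPases, 1 guanylate-binding protein, 1 sensor and 1 chemokine; those that were higher were Ifnb1 and Ifih1. None of the IFIT, ISG15, oligoadenylate synthetase, Mx and other effector genes passed. In the same interaction 8 of 11 monocyte, 7 of 11 neutrophil, 6 of 14 T and NK cell and 6 of 17 macrophage identity genes that were tested were lower, and their part in the result was not tested.

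Ifnb1 had an interaction of 1.77 (SE 0.44, adjusted p 0.0214 by edgeR): in Bhlhe41Cre the CCR2low libraries were 2.63-fold above the CCR2hi libraries, and in WT the log2 difference was -0.38 and did not pass. The interaction call was lost without Bhlhe41Cre CCR2low library 1 (adjusted p 0.0562). Ifih1 gave 1.32 (adjusted p 0.0492), and it no longer passed under 13 of 20 alternatives. Irf1 had the opposite pattern, with 76.9 to 82.4 CPM in Bhlhe41Cre CCR2low and 186 to 304 CPM in Bhlhe41Cre CCR2hi, and 186 to 283 CPM in WT CCR2low and 199.8 to 257 CPM in WT CCR2hi. It was low in Bhlhe41Cre CCR2low alone of the 4 groups, and the interaction was -1.77 (SE 0.28, adjusted p 0.00235).

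For Igtp the levels were 27.3 to 33.1 CPM in Bhlhe41Cre CCR2low and 58.6 to 102 CPM in Bhlhe41Cre CCR2hi, and 38.4 to 65.0 CPM in WT CCR2low and 26.6 to 47.5 CPM in WT CCR2hi. The gates thus lay apart in Bhlhe41Cre and overlapped in WT, with an interaction of -1.76 (SE 0.37, adjusted p 0.0101). Ifi47 gave -1.68 (adjusted p 0.0139) and Irgm1 -1.09 (adjusted p 0.0129), calls that 3 and 5 of 20 alternatives ended. Cxcl9 (-1.56), Gbp2 (-1.39), Zbp1 (-1.35) and Irf9 (-0.64) had calls that 10 to 17 of 20 alternatives ended, that of Irf9 also under the replicate block (adjusted p 0.0585). Irf1 and Igtp were the 2 whose interaction passed under all 20 alternatives other than scaling to macrophage genes. That scaling moved the median interaction by 1.17, after which Ifnb1 (3.01) and Ifih1 (2.45) were higher and passed, 0 of the 8 lower genes passed, and Irf9 (0.46) and Irgm1 (0.02) turned above 0. Gbp3, Gbp5 and Gbp7 did not pass. The 15 T and NK cell markers together took 0.00134 to 0.0019% of counts in Bhlhe41Cre CCR2low libraries and 0.00124 to 0.00264% in Bhlhe41Cre CCR2hi, and 0.00228 to 0.00276% in WT CCR2low libraries and 0.000566 to 0.00135% in WT CCR2hi.

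Within Bhlhe41Cre, CCR2low cells had 11 of the 41 genes higher and 10 lower than CCR2hi cells by edgeR, against 24.9% higher and 29.1% lower over all genes, so the shares called, 26.8% and 24.4%, were close to those over all genes. Without both libraries numbered 3 the counts were 11 and 8, and the median was -0.08, against -0.01 over all genes. Mx1, an antiviral dynamin-like GTPase, had 20.6, 16.96 and 16.6 CPM in Bhlhe41Cre CCR2low, against 6.67, 7.21 and 8.15 CPM in Bhlhe41Cre CCR2hi (log2 1.30, SE 0.20, adjusted p 9.22e-05). Ifnb1, Oas3, Oasl1, Dhx58 and Ifi204 were higher by 1.39, 1.31, 1.23, 0.94 and 0.92, each with groups that did not overlap, and Rsad2, Ifih1, Trim30a, Oas1a and Parp14 by 0.97, 0.94, 0.73, 0.72 and 0.67. Cxcl9 had 20.5, 20.9 and 15.3 CPM in Bhlhe41Cre CCR2low, against 123, 59.2 and 69.3 CPM in Bhlhe41Cre CCR2hi, and fell by 2.14 (SE 0.31, adjusted p 5.29e-05). Irf1 fell by 1.71, Ifi205 by 1.37, Igtp by 1.33, Irgm1 by 1.10 and Gbp2 by 1.04, and Slfn5, Ifi44, Gbp3 and Irf9 by 1.01, 0.95, 0.72 and 0.36. With the replicate number as a block the call of Irf9 was lost (adjusted p 0.0579 by edgeR).

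Within WT, CCR2low cells had 12 of the 41 genes higher and 6 lower than CCR2hi cells by edgeR, where over all genes 29.8% were higher and 30% lower. Without both Bhlhe41Cre libraries numbered 3 these counts were again 12 and 6, and the median was 0.06, against 0.01 over all genes. Oas3, which makes the 2-5A messenger of RNase L, had 82.1, 63.9 and 66.6 CPM in WT CCR2low, against 6.01, 12.5 and 19.0 CPM in WT CCR2hi. The gap was wide despite the spread within WT CCR2hi, at 5.68-fold (log2 2.51, SE 0.32, adjusted p 1.58e-05). Oas1a (1.56), Zbp1 (1.499), Dhx58 (1.25), Ifi47 (1.24), Oasl1 (1.19), Ifi204 (1.09) and Mx1 (0.93) were also higher, as were Irf7 (0.81), Cxcl10 (0.77), Oasl2 (0.75) and Trim30a (0.72). Ifi205 had 7.88, 9.35 and 6.78 CPM in WT CCR2low, against 46.8, 12.8 and 26.0 CPM in WT CCR2hi, and fell by 1.84; Gbp7, Ifi44, Ifit2, Slfn5 and Gbp3 fell by 0.98, 0.94, 0.76, 0.69 and 0.58. The number of genes lower in WT rested on single libraries: it was 2 without WT CCR2low library 2 or WT CCR2hi library 3, and 12 without WT CCR2hi library 1.

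Both gate comparisons depended on the scaling chosen. All 17 macrophage identity genes were higher and all 16 fibroblast genes lower in CCR2low in each genotype, and scaling to the macrophage identity genes moved the median gene by -1.95 in Bhlhe41Cre and -3.11 in WT. As the 17 genes were themselves higher in CCR2low, a downward shift of most genes follows from scaling to them. It cannot tell a change in the mixture of cells from a change per cell. Under that scaling all 11 genes that were higher in Bhlhe41Cre CCR2low and all 12 in WT CCR2low turned below 0, all but Ifnb1 and Oas3 passing as lower, and 40 of the 41 genes were lower in each genotype. Under TMM scaling 7 genes were higher in CCR2low in both (Oas1a, Oas3, Oasl1, Mx1, Dhx58, Ifi204 and Trim30a) and 4 lower in both (Ifi205, Gbp3, Ifi44 and Slfn5). The shares of all tested genes called the same way in both genotypes were not counted.

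**Figure D4:**
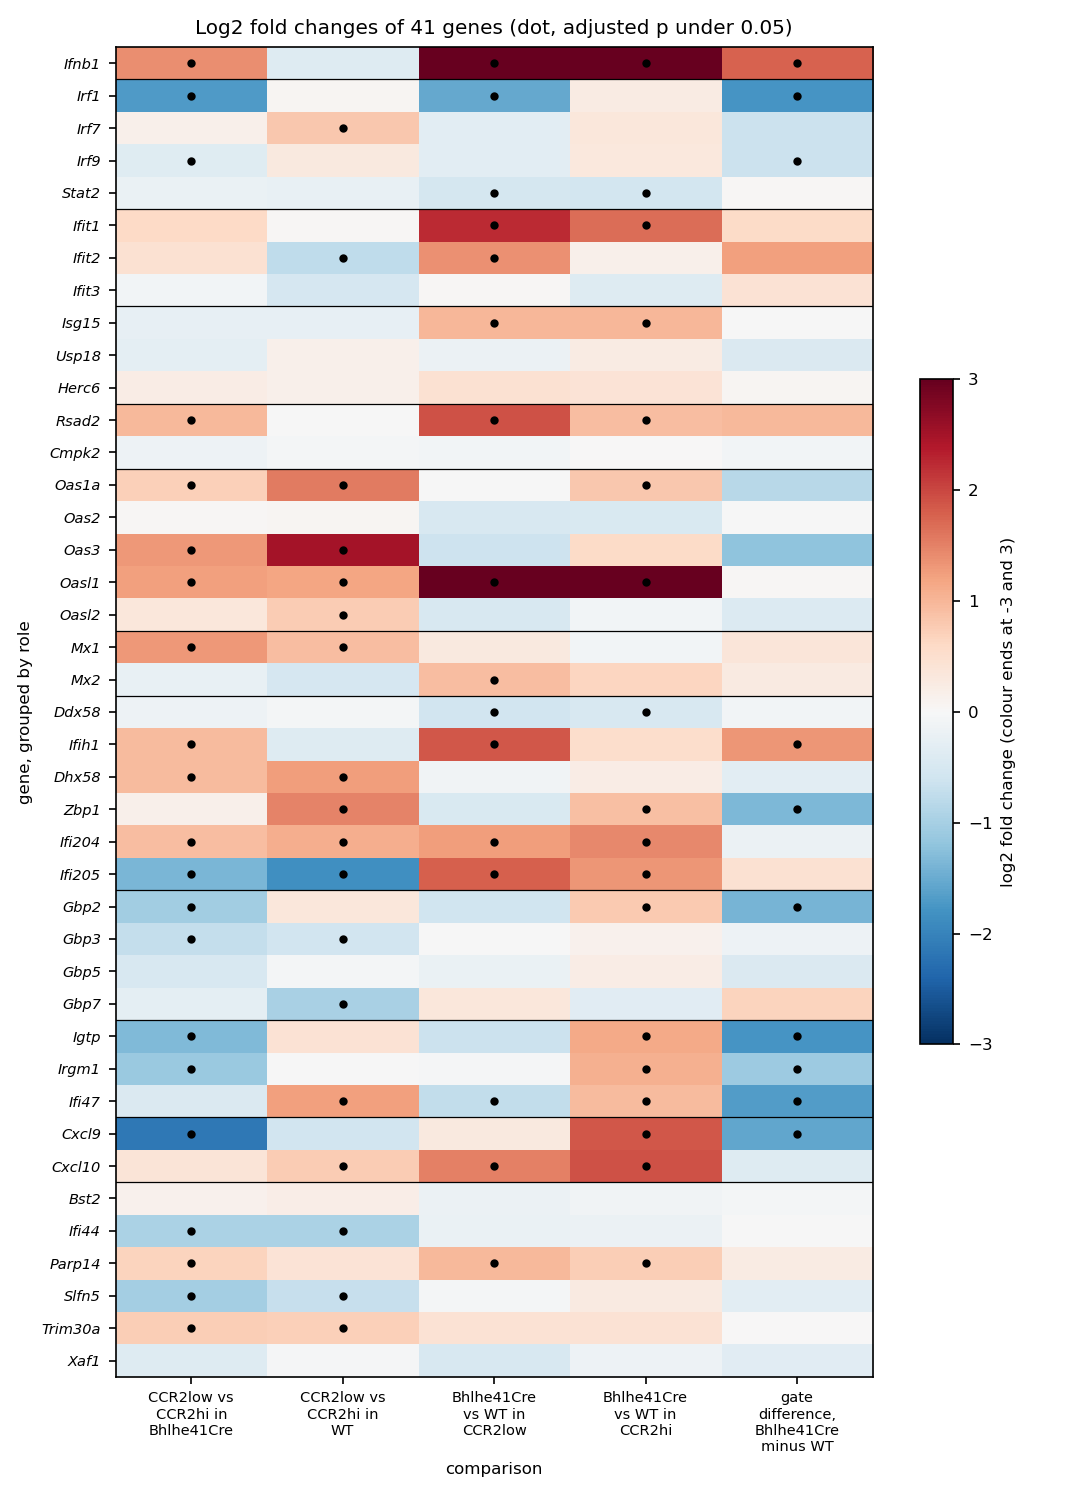
Log2 fold changes of the 41 genes, grouped by role, in the 5 comparisons; red is higher and blue lower in the group named first, and a dot marks an adjusted p under 0.05. Ifnb1 and Oasl1 are the darkest in both genotype columns; under scaling to macrophage identity genes the red dots of both gate columns turn to lower values, as do 8 of the 16 in the CCR2hi genotype column.

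Libraries of a group differed in the level of the module as a whole. WT CCR2hi library 3 held the highest value of its group for 39 of the 41 genes, although it was highest for 31.0% of all genes tested. Library 1 of that group held the lowest for 31, against 40.3% of all genes. In Bhlhe41Cre CCR2hi, library 1 was highest for 29 (35.5% of all genes) and library 2 lowest for 32 (30.8%). In Bhlhe41Cre CCR2low, library 1 was highest for 28 (26.1% of all genes) and library 3 lowest for 24 (41.1%). WT CCR2low was more even, with 10 to 18 genes highest in each library, against 26.1 to 38.1% of all genes. The summed level ran from 2856 to 3445 CPM in Bhlhe41Cre CCR2low and 2523 to 3552 CPM in Bhlhe41Cre CCR2hi, and from 2359 to 2489 CPM in WT CCR2low and 1641 to 2529 CPM in WT CCR2hi. In the CCR2hi gate the lowest Bhlhe41Cre sum thus lay just below the highest WT sum, whereas in CCR2low the sums of the genotypes stood apart. As a percent of counts, without TMM scaling, the genotypes also stood apart in CCR2hi. The lowest Bhlhe41Cre value there was 0.272% and the highest WT value 0.258%. A sum gives most weight to abundant genes, and the median member differed between genotypes by -0.04 in CCR2low and 0.40 in CCR2hi.

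A set of 8 members passed in none of the 5 comparisons, with log2 differences from -0.51 to 0.47. These were Bst2, the nucleotide kinase gene Cmpk2, Gbp5, the ISG15 ligase gene Herc6, Ifit3, Oas2, Usp18, whose product removes ISG15 and dampens the receptor, and Xaf1. The share of all tested genes that passed in no comparison was not counted. Members of one family had different calls: Oasl1 rose in Bhlhe41Cre with Oasl2 at -0.47 in CCR2low and -0.07 in CCR2hi, and Ifit1 rose with Ifit3 at 0.04 and -0.39. Whether such a pair differs from each other was not tested, and Ifit, Oas, Gbp and Ifi200 genes have near-identical copies between which the authors' quantification may divide reads. Exons of Irf9, Igtp and Ifi47, among others, overlap those of Rnf31, Irgm2 and Olfr56 on the same strand. On the other strand, exons of Irf1, Irf7, Oasl1 and Cxcl10, among others, overlap those of Gm17334, Phrf1, Gm13822 and Art3. Whether counting used the strand is not given.

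A wider list of 145 interferon pathway genes, none of them members, was described the same way, and 123 were tested. In CCR2low 21 were higher and 28 lower in Bhlhe41Cre than in WT, and in CCR2hi 41 were higher and 5 lower, with medians of -0.16 and 0.31, against -0.18 and -0.03 over all genes. The shares called were 17.1% higher and 22.8% lower in CCR2low, close to the 16.4% and 26.7% of all genes, and 33.3% and 4.1% in CCR2hi, where 16.2% and 15.9% of all genes were called. Without both libraries numbered 3 the counts were 23 and 34 in CCR2low and 36 and 6 in CCR2hi. Under scaling to macrophage genes they were 13 and 10 in CCR2low and 6 and 71 in CCR2hi. Ifnar1, a subunit of the type I receptor, had 137, 130.5 and 136 CPM in Bhlhe41Cre CCR2low, against 167, 193 and 148 CPM in WT CCR2low, and fell by 0.33 (adjusted p 0.0362), although not under 14 of 22 alternatives. The other subunit, Ifnar2, had 161 to 183 CPM in Bhlhe41Cre CCR2low and 152 to 186 CPM in WT CCR2low, with overlap. Of the interferon gamma receptor, Ifngr1 had 117 to 136 CPM in Bhlhe41Cre CCR2low, against 247 to 280.3 CPM in WT CCR2low, and fell by 1.08 (adjusted p 4.52e-05), while Ifngr2 fell by 0.73. Their interactions were -0.72 (adjusted p 0.0148) and -0.81 (adjusted p 0.0154), and turned to 0.44 and 0.36 under scaling to macrophage genes. Among the 9 signal transducers and interferon regulatory factors 0 rose and 5 fell in CCR2low.

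The following listed genes rose, and were named for the smallest p among called genes. In CCR2low the list as a whole had 21 genes higher and 28 lower, and in CCR2hi 41 higher and 5 lower. Ifngr1, named by the same rule, fell in CCR2low. Cd274, which encodes the immune checkpoint ligand PD-L1, had 265, 253 and 135 CPM in Bhlhe41Cre CCR2low, against 37.3, 44.2 and 45.5 CPM in WT CCR2low, and rose by 2.36 there and by 2.37 in CCR2hi. Ccl5, a chemokine of T cells and monocytes, had 47.9, 44.5 and 32.6 CPM in Bhlhe41Cre CCR2low, against 9.48, 9.30 and 6.73 CPM in WT CCR2low, a log2 fold change of 2.29. The groups were apart for both genes in both gates. In CCR2hi the schlafen gene Slfn2 had 365, 382 and 459.8 CPM in Bhlhe41Cre CCR2hi, against 79.7, 78.5 and 96.7 CPM in WT CCR2hi, and rose by 2.24. Trex1, the nuclease that clears DNA from the cytosol, had 85.8, 78.3 and 103 CPM in Bhlhe41Cre CCR2hi, against 27.0, 24.1 and 26.9 CPM in WT CCR2hi, and rose by 1.78. The membrane restriction factor gene Ifitm1 had 94.4, 53.7 and 78.5 CPM in Bhlhe41Cre CCR2hi, against 6.75, 6.62 and 6.27 CPM in WT CCR2hi, a log2 fold change of 3.53, and its interaction was -2.87 (adjusted p 0.00107).

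A group of 17 listed genes held sensors, adaptors, kinases and other regulators upstream of interferon genes, Trex1 among them. Of these 17, 13 were higher in CCR2low than in CCR2hi in Bhlhe41Cre and 15 in WT. Over the whole list 45 were higher and 23 lower between the gates of Bhlhe41Cre, and 66 higher and 20 lower between those of WT. These shares were 36.6% and 18.7% in Bhlhe41Cre, against 24.9% and 29.1% of all genes, and 53.7% and 16.3% in WT, against 29.8% and 30% of all genes. Without both libraries numbered 3 these counts were 39 and 16 in Bhlhe41Cre and 68 and 19 in WT. Ikbke, a kinase that activates the interferon regulatory factors, stood at 55.1 to 63.9 CPM in Bhlhe41Cre CCR2low and 20 to 25.6 CPM in Bhlhe41Cre CCR2hi, and at 41.8 to 46.9 CPM in WT CCR2low and 11.04 to 11.97 CPM in WT CCR2hi, with no overlap between gates. Ikbke, Ifi207 of the p200 family and Il10rb, a receptor chain that several cytokines share, were higher in CCR2low of Bhlhe41Cre by 1.45, 1.76 and 1.29. Slfn2, Il10rb and Ticam2, the adaptor that leads from TLR4 to interferon, were higher in CCR2low of WT by 2.46, 2.48 and 3.09. Under scaling to macrophage genes none of the 123 was higher in CCR2low of either genotype, and 115 in Bhlhe41Cre and 119 in WT were lower. The interaction was higher for 2 and lower for 20 of the 123 (1.6% and 16.3%, against 4.74% and 7.85% of all genes), and without both libraries numbered 3 for 4 and 21. Irf8, a lineage factor of monocytes and macrophages, had 80.7 to 110.2 CPM in Bhlhe41Cre CCR2low and 59.3 to 61.5 CPM in Bhlhe41Cre CCR2hi, and 190.1 to 247 CPM in WT CCR2low and 35.3 to 52.2 CPM in WT CCR2hi, an interaction of -1.77 (adjusted p 0.00107). That of Slfn2 was -1.28 (adjusted p 0.00183). Under scaling to macrophage genes the interaction was higher for 23 and lower for 2.

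The 11 markers of plasmacytoid dendritic cells, which can make type I interferon, took 0.0153 to 0.0173% of counts in Bhlhe41Cre CCR2low libraries and 0.0192 to 0.0216% in Bhlhe41Cre CCR2hi, against 0.0267 to 0.0303% in WT CCR2low libraries and 0.0211 to 0.0228% in WT CCR2hi. Of the 9 that were tested, 2 were higher and 4 lower in Bhlhe41Cre than in WT in CCR2low, and 2 higher and 2 lower in CCR2hi. The list includes Irf8, described above as a lineage factor of monocytes and macrophages. Its level also differed between the groups, so the summed share does not measure plasmacytoid dendritic cells alone. Siglech, their defining surface lectin, had 2 to 9 counts per library of Bhlhe41Cre CCR2low, 6 to 24 of Bhlhe41Cre CCR2hi, 1 to 14 of WT CCR2low and 2 to 7 of WT CCR2hi. Ccr9, a chemokine receptor of these cells, had 9 to 21 and 10 to 26 counts in the CCR2low and CCR2hi libraries of Bhlhe41Cre, against 3 to 6 and 2 to 5 counts in those of WT, so that every Bhlhe41Cre library was above every WT library. Klk1, another marker of the list, had 0 to 2 and 0 to 1 counts in the CCR2low and CCR2hi libraries of Bhlhe41Cre, against 46 to 70 and 0 to 5 in those of WT. The part of these cells in the level of Ifnb1 was not tested.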

How the data were processed

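Bulk RNA-seq of sorted cardiac macrophages was analysed from 2 tables that the authors deposited. One holds expected counts per gene and the other TPM, made by the authors with RSEM; the submitters' processing notes name CASAVA 1.8, STAR 2.4.0j, RSEM and mm10. The expected counts were whole numbers as deposited, and the deposited TPM values were used for levels between genes and in an alternative test. Strandedness, read length and the order of steps are not stated there. Columns named KD were matched to the Bhlhe41Cre titles by gate and number.

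Genes passing filterByExpr (14964) were tested with edgeR 4.0.16 (R 4.3.3): TMM scaling, 4 group means, a robust quasi-likelihood fit with 8 residual degrees of freedom and Benjamini-Hochberg adjustment over all tested genes, with calls at an adjusted p under 0.05. The procedure was tested on simulated data in which few genes changed, in a single group, with no shift in the mixture of cells. That simulation cannot show how TMM scaling behaves where the mixture differs, as it did between the gates. CPM values are TMM-scaled. Depth was 17702018 to 20826688 counts per library, with a biological coefficient of variation of 18.9%. Alternatives used DESeq2 1.42.0, limma 3.58.1 on log2(TPM + 1) and log2(TPM + 0.1), other scalings, no filter on low counts, fits of the compared groups alone, a replicate block and omission of each library. In the gate comparisons and the interaction the replicate block had a term for each genotype and number. In the genotype comparisons it had a term for each number alone, shared by Bhlhe41Cre and WT libraries that nothing links.

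The deviations of the Bhlhe41Cre gates from their group means correlated at 0.227, 0.119 and 0.396 for shared numbers 1, 2 and 3. CCR2low libraries 1 and 3 correlated best with the CCR2hi library of their own number, but CCR2low library 2 did so with CCR2hi library 1. Y-linked counts were low in both Bhlhe41Cre libraries numbered 3 (105 in CCR2low, 182 in CCR2hi) and higher in those numbered 1 and 2. Whether the replicate numbers pair the libraries is not settled, and the main fit had no term for them. For WT the correlations were -0.064, 0.028 and -0.048. Genes were named by a rule that ranks called genes by p with at most 4 per direction and comparison, with other members given for their role. The members and all gene lists were chosen with earlier results of these data known. Marker lists and promoter windows (RefSeq, GRCm38.p6) came from fixed lists and the reference tables, and exon overlaps from GENCODE on GRCm38. One gene of the wider pathway list is not reported by name here.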

Additional observations from a re-analysis of the deposited data

Results flagged for a closer look

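For 10 genes the difference between CCR2low and CCR2hi was not the same in Bhlhe41Cre and WT by the test of that difference in edgeR (log2 values, positive where CCR2low over CCR2hi was higher in Bhlhe41Cre). The values were 1.77 for Ifnb1 and 1.32 for Ifih1, and -1.77 for Irf1, -1.76 for Igtp, -1.68 for Ifi47, -1.56 for Cxcl9, -1.39 for Gbp2, -1.35 for Zbp1, -1.09 for Irgm1 and -0.64 for Irf9. Without both Bhlhe41Cre libraries numbered 3 the interaction of Ifnb1 was 1.99 and that of Igtp -1.90, and Irf9, Gbp2 and Cxcl9 no longer passed.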

How the results depend on the processing

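Under all 21 alternatives other than scaling to macrophage genes, 11 of 12 members higher and 1 of 4 lower in Bhlhe41Cre CCR2low passed, 9 of 16 higher and 0 of 2 lower in CCR2hi, 6 of 11 higher and 6 of 10 lower between the gates of Bhlhe41Cre, and 7 of 12 higher and 2 of 6 lower between those of WT. In the interaction 0 of 2 higher and 2 of 8 lower passed under all 20. Scaling to macrophage identity genes moved the median gene by -1.95 between the gates of Bhlhe41Cre, -3.11 between those of WT, 0.02 and -1.14 between the genotypes in CCR2low and CCR2hi, and 1.17 in the interaction. It reversed the sign of log2 values; between the gates of Bhlhe41Cre these became Ifnb1 -0.54, Irf7 -1.80, Ifit1 -1.37, Ifit2 -1.52, Herc6 -1.76, Rsad2 -0.997, Oas1a -1.22, Oas2 -1.91, Oas3 -0.63, Oasl1 -0.73, Oasl2 -1.61, Mx1 -0.65, Ifih1 -1.03, Dhx58 -1.002, Zbp1 -1.79, Ifi204 -1.04, Cxcl10 -1.59, Bst2 -1.82, Parp14 -1.30, Trim30a -1.22, Ifi207 -0.19, Ikbke -0.51 and Il10rb -0.65. Between the gates of WT they became Irf1 -3.02, Irf7 -2.18, Irf9 -2.78, Ifit1 -3.07, Usp18 -2.85, Herc6 -2.90, Oas1a -1.40, Oas2 -2.82, Oas3 -0.42, Oasl1 -1.87, Oasl2 -2.27, Mx1 -2.10, Dhx58 -1.78, Zbp1 -1.50, Ifi204 -2.02, Gbp2 -2.72, Igtp -2.60, Ifi47 -1.75, Cxcl10 -2.37, Bst2 -2.80, Parp14 -2.66, Trim30a -2.26, Slfn2 -0.64 and Il10rb -0.59. Between the genotypes in CCR2hi they became Irf1 -0.88, Irf7 -0.69, Irf9 -0.76, Ifit2 -0.90, Isg15 -0.074, Usp18 -0.77, Rsad2 -0.075, Cmpk2 -0.95, Oas1a -0.19, Dhx58 -0.86, Zbp1 -0.14, Gbp2 -0.28, Gbp3 -0.92, Gbp5 -0.82, Irgm1 -0.037, Ifi47 -0.045, Parp14 -0.35, Slfn5 -0.87 and Trim30a -0.58. For the interaction they became Irf9 0.46, Isg15 1.08, Ddx58 1.06, Irgm1 0.018, Ifngr1 0.44 and Ifngr2 0.36. Total count scaling gave 6 genes higher between the gates of Bhlhe41Cre, 1 lower between the genotypes in CCR2hi and 1 with a higher interaction. Scaling to macrophage genes gave 0 higher and 40 lower between the gates of either genotype, 1 lower between the genotypes in CCR2low, 3 higher and 21 lower in CCR2hi, and an interaction higher for 16 and lower for 0. With no filter on low counts there were 2 lower in CCR2low, 10 higher in CCR2hi, and an interaction higher for 1 and lower for 3. Both limma fits on TPM gave 6 higher between the gates of Bhlhe41Cre, 7 higher between those of WT, 1 lower in CCR2low, and an interaction higher for 1 and lower for 4, with 11 and 10 lower between the gates of WT. RLE size factors and fits of the compared groups alone each left 2 lower in CCR2low. Under the replicate block 1 gene was lower in CCR2hi, Gbp2 in CCR2hi (adjusted p 0.0584), Stat2 in both gates (0.0628 in CCR2low, 0.0632 in CCR2hi), Ifi47 in CCR2low (0.0572), and Irf9 between the Bhlhe41Cre gates (0.0579) and in the interaction (0.0585) lost their calls, and Ifit1, Parp14, Ifit2 and Oasl2 each gained 1; it changed no other call among the members. In the wider list it gave 49 and 26 genes higher and lower between the gates of Bhlhe41Cre, 70 and 21 between those of WT, 20 and 28 in CCR2low, 40 and 5 in CCR2hi, and an interaction for 3 and 27. Without both Bhlhe41Cre libraries numbered 3, 1 gene was lower in CCR2hi and the interaction was higher for 4 and lower for 5.

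Leaving out single libraries gave 7 to 12 genes higher between the gates of Bhlhe41Cre and 7 to 10 lower, 8 to 14 higher and 2 to 12 lower between those of WT, 11 to 15 higher and 1 to 7 lower in CCR2low, 10 to 18 higher and 0 to 4 lower in CCR2hi, and an interaction higher for 0 to 4 and lower for 2 to 9. The value of 7 came without Bhlhe41Cre CCR2hi library 2 and that of 10 in CCR2hi without Bhlhe41Cre CCR2hi library 1. Oas2 between the gates of WT ran from -0.54 to 0.47. The cause of these shifts was not tested. Counts of 10 to 32 for Ifnb1 in WT CCR2hi limit the precision of its fold change there.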
